A study of Mus musculus with 24 samples.

Results

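Interferon-stimulated genes were followed across 24 bulk RNA-seq libraries of the mouse medial prefrontal cortex. They are 44 listed genes whose Ensembl entries in the deposited count table reached a mean of at least 0.3 CPM, reads scaled to the library's total, over the 24 libraries. All 44 passed that rule and all were tested, of 56750 entries in the table and 20354 tested genes. All mice carried the genotype label 5xFAD, an amyloid line whose transgenes, among them human APP, are driven by the neuronal Thy1 promoter. The groups, of 4 libraries each, were socially isolated mice in the WT arm (SI_WT), with an enriched environment (SI_EE) and without treatment (SI_Con), and GH mice in the WT arm (GH_WT), with an enriched environment (GH_EE) and without treatment (GH_Con). No label explains the letters GH, or the name WT beside that genotype. Age is not given. No label ties a library to a single animal, so the p-values speak only of the scatter among libraries, although every group held libraries of both sexes by their reads and so came from more than 1 animal.

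Interferons bind receptors at the cell surface and act through JAK kinases. Type I interferon assembles a complex, STAT2 and IRF9 among its subunits, that binds interferon-stimulated response elements (ISRE) in promoters, and interferon gamma acts through GAS elements. The induced proteins block viral entry, sense or cut foreign RNA, tag proteins with ISG15 and load peptides on MHC class I. In brains of amyloid mouse models, some microglia carry such a programme.

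The promoters of 4 members are shown because Plscr1 had the smallest p of the list in most comparisons of enrichment and isolation, Stat2 codes for a subunit of the ISRE-binding complex, and Ifit3 and Ifit3b are near-identical neighbours. Each runs from 250 bases before to 50 bases after the RefSeq transcript start (GRCm38.p6, plus strand, 5′ to 3′), at chr9:92249944-92250243 for Plscr1, chr10:128270248-128270547 for Stat2, chr19:34583279-34583578 for Ifit3 and chr19:34607707-34608006 for Ifit3b. Capitals mark matches on either strand to the ISRE core, which is GAAA, any 2 bases and GAAA.
Plscr1: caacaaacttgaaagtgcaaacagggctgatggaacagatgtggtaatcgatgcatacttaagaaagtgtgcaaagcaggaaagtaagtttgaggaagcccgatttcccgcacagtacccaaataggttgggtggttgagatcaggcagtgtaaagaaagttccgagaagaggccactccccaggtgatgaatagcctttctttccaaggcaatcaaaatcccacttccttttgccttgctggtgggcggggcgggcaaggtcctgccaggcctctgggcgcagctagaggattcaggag
Stat2: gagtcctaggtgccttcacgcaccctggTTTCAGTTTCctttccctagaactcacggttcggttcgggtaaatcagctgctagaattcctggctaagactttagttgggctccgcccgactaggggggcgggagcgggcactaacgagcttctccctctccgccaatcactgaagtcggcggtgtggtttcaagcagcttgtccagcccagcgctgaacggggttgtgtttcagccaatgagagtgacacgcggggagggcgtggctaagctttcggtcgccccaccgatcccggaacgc
Ifit3: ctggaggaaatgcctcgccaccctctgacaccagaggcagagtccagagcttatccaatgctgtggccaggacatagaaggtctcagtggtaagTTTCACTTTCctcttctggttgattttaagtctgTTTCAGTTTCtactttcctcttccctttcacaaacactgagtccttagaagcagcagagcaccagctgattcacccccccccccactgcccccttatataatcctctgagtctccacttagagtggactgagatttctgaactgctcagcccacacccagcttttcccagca
Ifit3b: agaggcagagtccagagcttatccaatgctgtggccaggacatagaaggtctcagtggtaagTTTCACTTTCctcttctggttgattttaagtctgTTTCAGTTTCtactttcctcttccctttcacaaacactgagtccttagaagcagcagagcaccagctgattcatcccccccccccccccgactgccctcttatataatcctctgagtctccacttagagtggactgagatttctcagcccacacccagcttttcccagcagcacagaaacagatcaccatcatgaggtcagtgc
The Ifit3 and Ifit3b windows each held 2 matches and the Stat2 window 1, while the letters do not occur in the Plscr1 window. RefSeq held 43 promoters of 36 of the 44 members, and 19 of these 43 (44.2%) held the ISRE core, against 3.44% of all 32851 promoters. The GAS core (TTC, any 3 bases and GAA, on either strand) was in 13 of the 43 (30.2%), against 8.3% of all promoters.

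Levels differed widely within the list. Per kilobase of exon, averaged over the 24 libraries, Adar, an RNA-editing enzyme with a constitutive form, stood highest at 24.6 CPM per kb. Next came Ifitm3, a membrane protein that blocks viral entry, at 17.2, and Ifi27 at 14.8 CPM per kb. Zbp1, a sensor of Z-form nucleic acids, was lowest at 0.114 CPM per kb and had no read in 3 libraries. The 44 genes lie on 17 chromosomes, and 19 of them share exon bases with another annotated gene. Parp9 (chr16:35938470-35972605, GRCm38) and Dtx3l (chr16:35926511-35939151) overlap on opposite strands, as do Tap1 and Psmb9. The use of strand in counting is not given in the sources used here, so values of such pairs are uncertain, as is the split of reads between Ifit3 (chr19:34583531-34588731) and Ifit3b (chr19:34607970-34613401).

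Totals ran from 33683587 to 51274917 counts per library, and some libraries stood apart. SI_EE 1 held cerebellar transcripts, with a cerebellar list at 8.44 log2 CPM against at most 2.76 in any other library. GH_Con 2, SI_Con 2, SI_Con 3 and SI_WT 4 read lower for longer genes: with genes in 5 bins by exon length, the longest bin minus the shortest was -0.69 to -0.28 in these libraries, in median log2 CPM relative to each gene's median library. The difference was -0.24 in SI_EE 1 and -0.08 or above in the other 19. GH_WT 2 and GH_WT 4 held thalamic transcripts, with a thalamic and habenular list at 4.76 and 5.03 log2 CPM, against 4.17 in SI_EE 1 and at most 3.32 elsewhere. Reads of Xist against Y-linked genes gave 3 female libraries in GH_Con, 1 in SI_EE and 2 in each other group. The human APP entry was read in all 24 libraries, and the label WT thus does not mark libraries without it.

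The mean log2 CPM of the 44 genes was 2.40 ± 0.41 in SI_WT, 2.49 ± 0.42 in SI_EE, 2.03 ± 0.53 in SI_Con, 2.63 ± 0.17 in GH_WT, 2.18 ± 0.29 in GH_EE and 2.53 ± 0.32 in GH_Con (SD, n = 4). SI_Con had the lowest group mean and the widest spread, from 1.46 in SI_Con 3 to 2.56 in SI_Con 2, which lies above the means of 4 other groups. Single libraries carried much of the range: SI_EE 4 was the highest of all 24 libraries for 16 members and SI_WT 4 for 11, while SI_Con 3 was the lowest for 17. In untreated and enriched groups, libraries read as female were above those read as male. In SI_Con they were at 2.39 and 2.56, against 1.46 and 1.72. In GH_EE they were at 2.32 and 2.51, against 1.91 and 1.97. SI_EE 4, the only female library of SI_EE, was at 3.04, against at most 2.52. GH_Con 4, the only male library of GH_Con, was at 2.18, against at least 2.37. In the WT arm the sexes overlapped, and the part of sex in this mean was not tested.

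**Figure D1:**
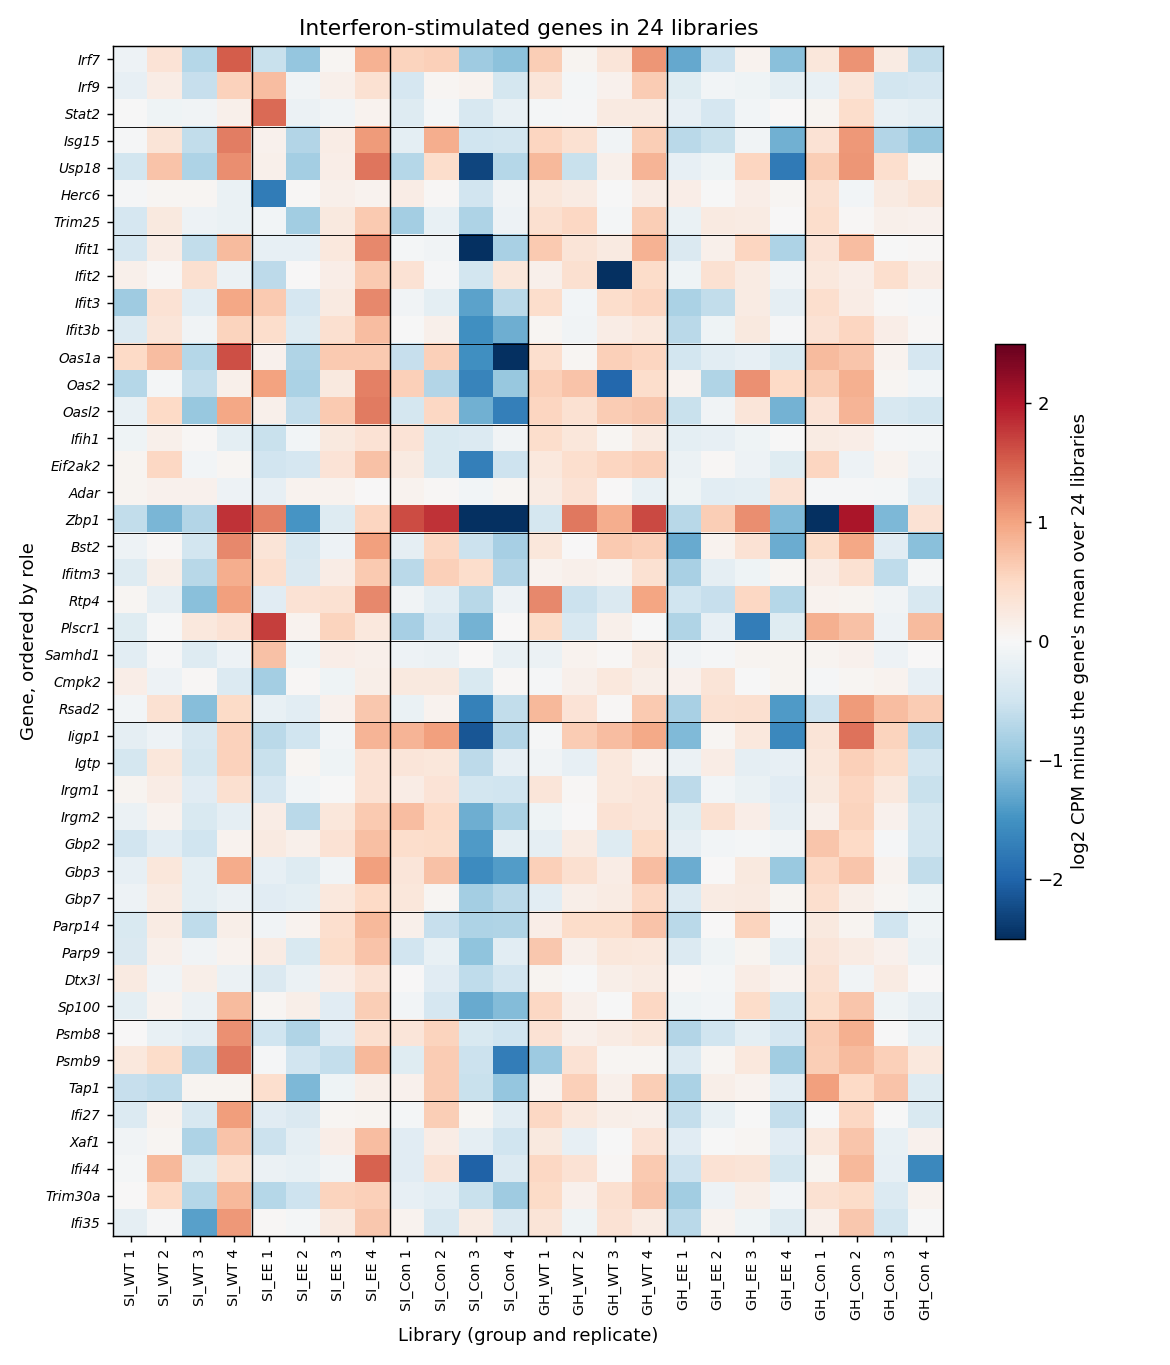
Each of the 44 genes (rows, ordered by role, with lines between roles) in each of the 24 libraries (columns, 4 per group), as log2 CPM minus the gene's mean over the 24 libraries. SI_EE 4, the highest library for 16 genes, and SI_WT 4, the highest for 11, are mostly red (above the gene's mean), and SI_Con 3, the lowest for 17, is mostly blue.

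Enrichment was compared with no treatment in isolated and in GH mice, pairs of groups that share no library. No member passed an adjusted p of 0.05 in either housing (edgeR quasi-likelihood test, Benjamini-Hochberg adjustment over all tested genes), where 0% of all genes passed in isolated mice and 0.00491% in GH mice. By sign, 34 of 44 members were higher in SI_EE than in SI_Con (all genes, 50.7% higher and 49.3% lower), with a median log2 fold change of 0.36 against 0.01 over all genes. In GH mice 41 of 44 were lower in GH_EE than in GH_Con (all genes, 46.4% higher and 53.6% lower), with a median of -0.36 against -0.02. At an unadjusted p under 0.05, 11 members were higher in SI_EE and 0 lower (all genes, 7.03% higher and 5.56% lower), and 2 were lower in GH_EE and 0 higher (all genes, 2.62% higher and 3.7% lower). For the difference between housings in the effect of enrichment, the interaction, 40 of 44 were positive (all genes, 51.6% positive and 48.4% negative), with a median of 0.76 against 0.01, 11 positive at an unadjusted p under 0.05 (all genes, 5.16% positive and 2.58% negative) and 0 past the adjusted p (all genes, 0%).

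These counts moved with single libraries. Without SI_EE 4, 18 members in place of 10 were lower in SI_EE than in SI_Con and 6 in place of 11 had an unadjusted p under 0.05, and the median was 0.18. In GH mice the members higher in GH_EE were 8 in place of 3 without GH_Con 1, and 9 without GH_Con 2 or GH_EE 1. Their count of 2 lower at an unadjusted p under 0.05 became 1 without GH_Con 2, 7 without GH_Con 4, and 5 without GH_EE 2 or GH_EE 3. The interaction's count of 11 became 5 without GH_Con 2 or SI_EE 4, 6 without GH_EE 1 or GH_EE 4, and 7 without GH_Con 1, SI_Con 4 or SI_EE 3. Without the 4 libraries that read lower for longer genes, 34 members were higher in SI_EE than in SI_Con (median 0.50), 35 were lower in GH_EE than in GH_Con (median -0.19) and 38 had a positive interaction (median 0.60). Without SI_EE 1, 38 were higher in SI_EE (median 0.44) and 41 had a positive interaction (median 0.84). SI_EE held 1 female library and GH_Con 3. With sex as a covariate, the medians were 0.53 in isolated mice, -0.23 in GH mice and 0.80 for the interaction. In isolated mice and for the interaction, 23 and 19 members in place of 11 and 11 then had an unadjusted p under 0.05. Astrocyte marker means were 7.45 ± 0.34 log2 CPM in SI_EE and 7.16 ± 0.18 in SI_Con (SD, n = 4). In GH mice they were 7.39 ± 0.19 in GH_EE and 7.57 ± 0.18 in GH_Con. Oligodendrocyte marker means were 7.58 ± 0.26 in SI_EE and 7.34 ± 0.14 in SI_Con. They were 7.54 ± 0.23 in GH_EE and 7.76 ± 0.20 in GH_Con. Neuron marker means went the other way in both housings. They were 8.96 ± 0.35 in SI_EE and 9.14 ± 0.14 in SI_Con, and 9.23 ± 0.05 in GH_EE and 9.12 ± 0.08 in GH_Con. In isolated mice the lower mean came from SI_EE 1, at 8.45. The other SI_EE libraries ran from 9.06 to 9.19, within the SI_Con range of 8.93 to 9.25. Groups overlapped, and the part of cell types was not tested.

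**Figure D2:**
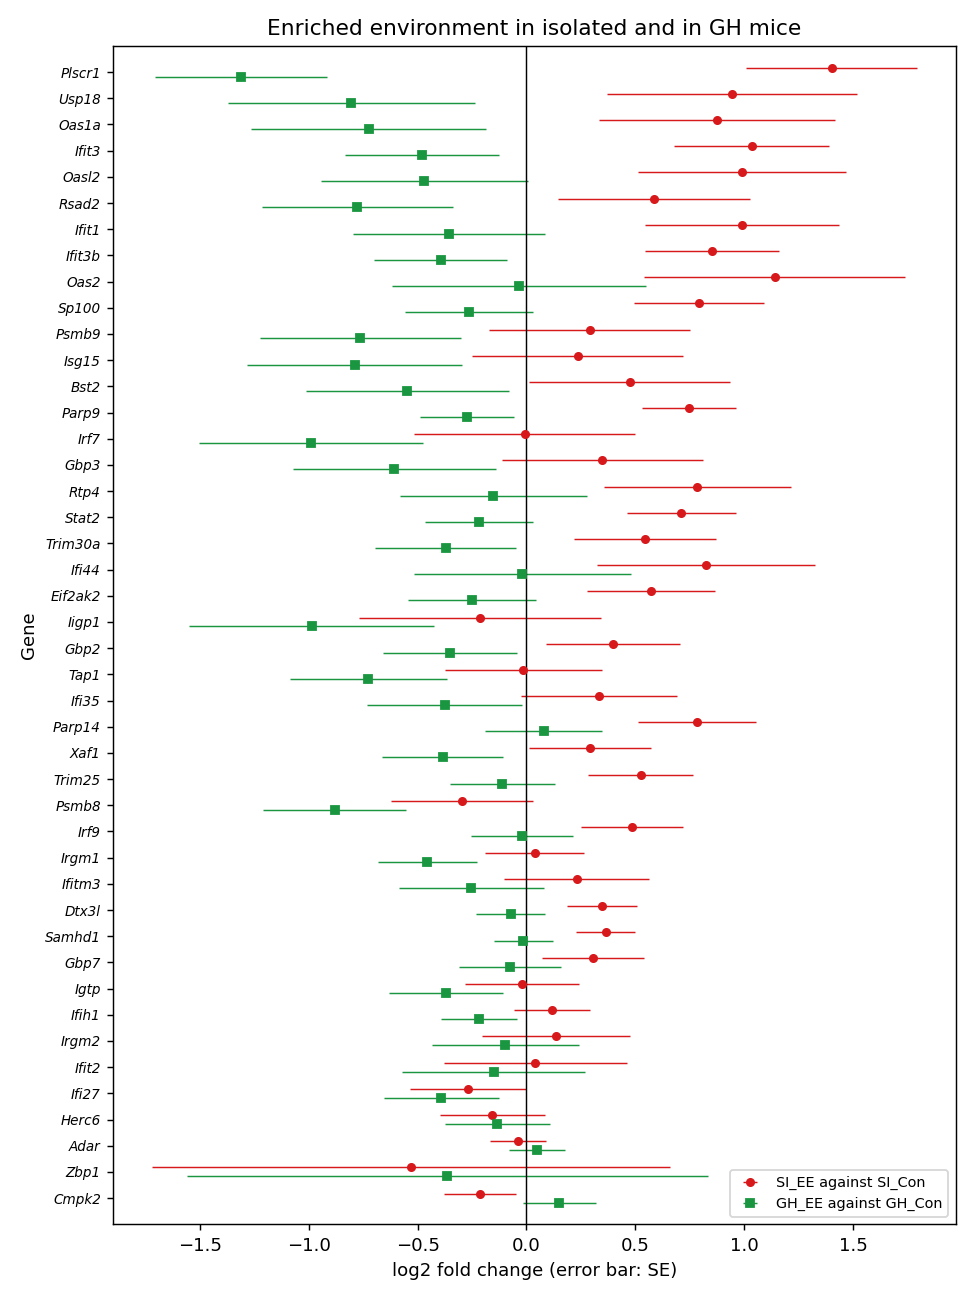
Log2 fold change of each of the 44 genes for SI_EE against SI_Con (red circles) and GH_EE against GH_Con (green squares), with SE as error bars, sorted by the difference between them. Red points lie mostly right of 0 (34 of 44) and green points mostly left of it (41 of 44), and Plscr1 has the widest gap.

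Among members at the membrane, Plscr1 (phospholipid scramblase 1, which restricts virus entry) was at 4.27, 1.34, 1.86 and 1.51 CPM in SI_EE, against 0.683, 0.918, 0.522 and 1.26 CPM in SI_Con. In GH mice it was at 0.722, 1.08, 0.340 and 0.996 CPM in GH_EE, against 2.35, 2.11, 1.14 and 2.20 CPM in GH_Con. Neither pair of groups overlapped, and the directions were opposite. The log2 fold change was 1.40 (SE 0.39) in isolated mice (adjusted p = 0.186) and -1.31 (SE 0.39) in GH mice (adjusted p = 0.537). The interaction was 2.71 (SE 0.56), with an unadjusted p of 7.62e-05 and an adjusted p of 0.373. DESeq2 gave an adjusted p of 0.0485 in isolated mice and 0.00695 for the interaction, the only calls of a member by that tool. SI_EE 1, with the cerebellar transcripts, was the highest library. Without it the edgeR values were 0.89 in isolated mice (adjusted p = 0.435) and 2.19 for the interaction (adjusted p = 0.445).

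Bst2 (tetherin, which holds budding virus at the membrane) was at 4.59, 2.78, 3.36 and 7.52 CPM in SI_EE, against 3.16, 5.27, 2.53 and 2.06 CPM in SI_Con. In GH mice Bst2 was at 1.498, 3.91, 4.77 and 1.52 CPM in GH_EE, against 5.05, 7.24, 3.02 and 1.76 CPM in GH_Con, and both pairs overlapped. Ifitm3 was at 14.8, 8.60, 12.6 and 17.5 CPM in SI_EE, against 6.89, 16.7, 14.9 and 6.60 CPM in SI_Con, with a log2 fold change of 0.23 (SE 0.33). Its values also overlapped between the groups.

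**Figure D3:**
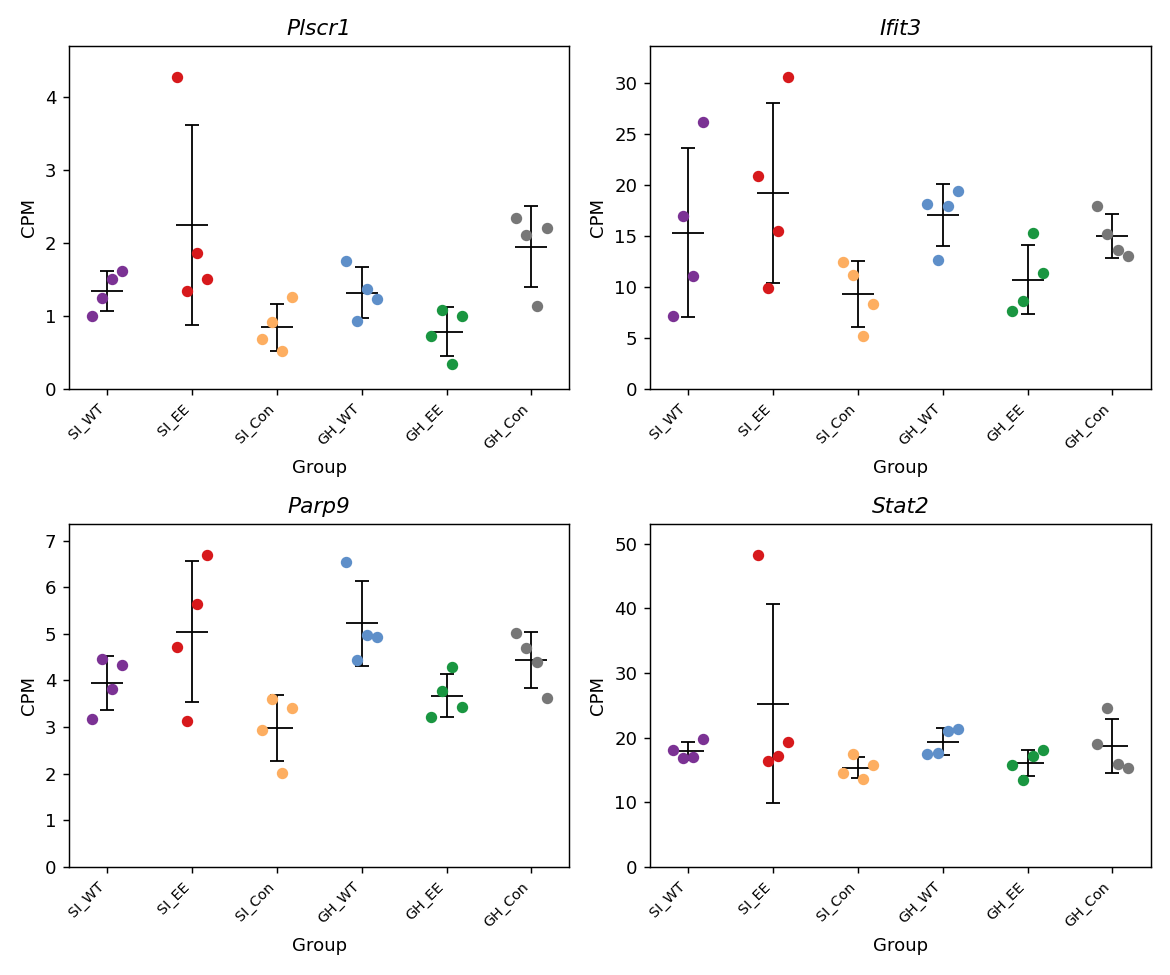
CPM of Plscr1, Ifit3, Parp9 and Stat2 in each library (points) by group, with the mean (dash) and SD (bar, n = 4). Plscr1 separates SI_EE from SI_Con and GH_EE from GH_Con in opposite directions, and the high Stat2 and Plscr1 points of SI_EE are both library SI_EE 1.

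The IFIT proteins bind viral RNA at its cap. Ifit3 was at 20.9, 9.91, 15.5 and 30.6 CPM in SI_EE, against 12.5, 11.2, 5.22 and 8.34 CPM in SI_Con. In GH mice Ifit3 was at 7.65, 8.67, 15.3 and 11.4 CPM in GH_EE, against 17.9, 15.2, 13.6 and 13.1 CPM in GH_Con. Of the SI_EE libraries 3 of 4 lay above every SI_Con library, and 3 of 4 GH_EE libraries lay below every GH_Con library. The log2 fold changes were 1.03 (SE 0.36) in isolated mice (adjusted p = 0.246) and -0.48 (SE 0.35) in GH mice (adjusted p = 0.906). Its neighbour Ifit3b, whose window also held 2 ISRE matches, was at 11.98, 7.01, 11.7 and 15.2 CPM in SI_EE, against 8.77, 9.60, 3.03 and 3.77 CPM in SI_Con. Ifit3b had a log2 fold change of 0.85 (SE 0.31) in isolated mice and -0.39 (SE 0.30) in GH mice, and 3 of 4 SI_EE libraries again lay above SI_Con. Ifit1 was at 3.62, 3.60, 5.01 and 9.63 CPM in SI_EE, against 4.04, 3.93, 0.575 and 2.34 CPM in SI_Con. The log2 fold change of Ifit1 was 0.99 (SE 0.45), with 2 of 4 SI_EE libraries above SI_Con.

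Parp9 and Dtx3l form a complex that ubiquitinates and ADP-ribosylates proteins. Parp9 was at 4.72, 3.14, 5.65 and 6.69 CPM in SI_EE, against 2.93, 3.59, 2.01 and 3.40 CPM in SI_Con. In GH mice Parp9 was at 3.21, 3.78, 4.28 and 3.43 CPM in GH_EE, against 5.02, 4.70, 4.39 and 3.63 CPM in GH_Con. SI_EE lay above SI_Con in 3 of 4 libraries, with a log2 fold change of 0.75 (SE 0.22) and an adjusted p of 0.19, and the GH value was -0.27 (SE 0.22). Without SI_EE 2 the isolated value was 0.92, with an adjusted p of 0.0491, past the threshold. Without SI_EE 1 it was 0.78, with an adjusted p of 0.375. Dtx3l was at 5.92, 6.82, 8.58 and 9.82 CPM in SI_EE, against 7.66, 6.21, 4.91 and 5.46 CPM in SI_Con, with a log2 fold change of 0.35 (SE 0.16). Parp14, another ADP-ribosyltransferase, was at 4.92, 5.57, 6.95 and 9.13 CPM in SI_EE, against 5.66, 3.49, 3.03 and 3.09 CPM in SI_Con. Its log2 fold change was 0.79 (SE 0.27, adjusted p = 0.245), with 2 of 4 SI_EE libraries above SI_Con. Sp100, a component of PML nuclear bodies, was at 4.52, 4.83, 3.60 and 6.75 CPM in SI_EE, against 4.16, 3.28, 1.80 and 2.03 CPM in SI_Con. All 4 members of this nuclear group were higher in SI_EE at an unadjusted p under 0.05 and none passed the adjusted p.

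Of the signalling factors, Stat2 was at 48.2, 16.3, 17.1 and 19.3 CPM in SI_EE, against 14.5, 17.4, 13.6 and 15.8 CPM in SI_Con. The high value is SI_EE 1, and the other 3 SI_EE libraries lay between 16.3 and 19.3 CPM. Irf9, the DNA-binding partner of STAT2, was at 19.5, 10.7, 12.3 and 14.8 CPM in SI_EE, against 8.51, 11.7, 12.04 and 8.34 CPM in SI_Con. SI_EE 1 was again the highest library. The log2 fold change of Irf9 was 0.49 (SE 0.23), and 0.30 to 0.60 with single libraries left out. Irf7, the factor that amplifies interferon production, was at 2.17, 1.64, 3.36 and 5.95 CPM in SI_EE, against 4.81, 4.96, 1.72 and 1.57 CPM in SI_Con, with a log2 fold change of -0.01 (SE 0.51), whose sign changed under 10 of the alternatives. In GH mice Irf7 was at 1.31, 2.24, 3.43 and 1.55 CPM in GH_EE, against 3.96, 7.16, 3.73 and 2.10 CPM in GH_Con, with a log2 fold change of -0.99 (SE 0.51) and overlapping groups.

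In the ISG15 system, Isg15 (the ubiquitin-like modifier) was at 1.47, 0.791, 1.55 and 2.91 CPM in SI_EE, against 1.14, 2.60, 0.940 and 0.971 CPM in SI_Con. Usp18, which removes ISG15 and dampens receptor signalling, was at 1.77, 0.873, 1.81 and 4.17 CPM in SI_EE, against 0.968, 2.20, 0.287 and 0.971 CPM in SI_Con. Both overlapped, with log2 fold changes of 0.24 (SE 0.48) for Isg15 and 0.95 (SE 0.57) for Usp18, and the Isg15 value was -0.17 without SI_EE 4. Trim25, a ubiquitin ligase of the RIG-I pathway, was at 7.24, 4.12, 8.93 and 11.9 CPM in SI_EE, against 4.18, 6.63, 4.41 and 6.91 CPM in SI_Con. SI_EE 1 held the lowest Herc6 value, and Herc6 (an ISG15 ligase in mice) was at 6.39, 22.1, 23.7 and 23.0 CPM in SI_EE, against 24.8, 22.2, 15.5 and 20.3 CPM in SI_Con.

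Among enzymes that act on RNA, Oasl2, an OAS-like protein, was at 5.69, 3.41, 8.21 and 12.8 CPM in SI_EE, against 3.81, 7.42, 2.22 and 1.54 CPM in SI_Con, with a log2 fold change of 0.99 (SE 0.48). Oas1a, of the family that makes the activator of RNase L, was at 1.17, 0.628, 1.73 and 1.76 CPM in SI_EE, against 0.712, 1.68, 0.340 and 0.114 CPM in SI_Con, with a log2 fold change of 0.87 (SE 0.54). All 3 OAS genes were higher in SI_EE by sign, none at an unadjusted p under 0.05. Eif2ak2 (the kinase PKR) was at 5.19, 5.43, 9.16 and 12.04 CPM in SI_EE, against 8.45, 5.53, 2.17 and 5.06 CPM in SI_Con, with a log2 fold change of 0.57 (SE 0.29). Adar was at 172, 211, 211 and 199.6 CPM in SI_EE, against 212, 201, 188 and 206 CPM in SI_Con, with a log2 fold change of -0.04 (SE 0.13). Zbp1 was at 0.674, 0.0546, 0.186 and 0.384 CPM in SI_EE, against 0.882, 0.996, 0 and 0 CPM in SI_Con. The SI_Con libraries held 31, 38, 0 and 0 of its reads, and its log2 fold change was -0.53 (SE 1.19). Samhd1, which depletes nucleotides, was at 27.8, 15.5, 18.8 and 18.4 CPM in SI_EE, against 15.3, 15.2, 16.8 and 14.7 CPM in SI_Con. Its log2 fold change was 0.36 (SE 0.14), with 3 of 4 SI_EE libraries above SI_Con. SI_EE 1 was its highest library, and leaving out single libraries gave 0.17 to 0.47.

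By role, the median log2 fold changes in isolated mice were lowest for the 3 antigen processing genes (-0.01), the 4 RNA sensors and kinases (0.04) and the 7 GTPases (0.13), and highest for the 3 OAS genes (0.99) and the 4 IFIT genes (0.92). Differences between roles were not tested. Gbp2 was at 5.97, 5.59, 6.55 and 8.67 CPM in SI_EE, against 6.92, 7.03, 1.88 and 4.31 CPM in SI_Con, and Gbp3 at 6.59, 6.06, 7.17 and 15.5 CPM in SI_EE, against 9.42, 12.7, 2.51 and 2.86 CPM in SI_Con. These guanylate-binding proteins attack vacuoles of intracellular microbes, and their groups overlapped. Irgm1, a regulator of the immunity-related GTPases, was at 10.1, 12.99, 13.5 and 17.6 CPM in SI_EE, against 15.4, 17.4, 9.87 and 9.63 CPM in SI_Con. Trim30a, a mouse ubiquitin ligase family member, was at 2.15, 2.46, 5.20 and 5.35 CPM in SI_EE, against 3.07, 2.94, 2.38 and 1.89 CPM in SI_Con. Of these 4, none had an unadjusted p under 0.05.

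In GH mice the antigen processing genes had the lowest median log2 fold change of any role, -0.76. Psmb8, an immunoproteasome subunit, was at 1.87, 2.21, 2.64 and 2.34 CPM in GH_EE, against 4.94, 5.86, 3.11 and 2.77 CPM in GH_Con. The groups did not overlap, and the log2 fold change was -0.88 (SE 0.33), with an adjusted p of 0.648. Tap1, the peptide transporter, was at 1.47, 2.86, 2.72 and 2.14 CPM in GH_EE, against 5.29, 3.65, 4.22 and 2.05 CPM in GH_Con, with a log2 fold change of -0.73 (SE 0.36). Psmb9, the other immunoproteasome subunit, was at 0.990, 1.31, 1.53 and 0.673 CPM in GH_EE, against 1.96, 2.22, 1.94 and 1.53 CPM in GH_Con, with a log2 fold change of -0.76 (SE 0.46). Both overlapped between groups.

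Isolation was compared in untreated mice, where it shares its SI_Con and GH_Con libraries with the enrichment comparisons, so that a low SI_Con library lowers this fold change and raises that of enrichment. By sign 38 of 44 members were lower in SI_Con than in GH_Con (all genes, 50.1% higher and 49.9% lower), with a median log2 fold change of -0.36 against 0.00. Marker means of other cell types moved with this comparison. Astrocyte markers ran from 6.996 to 7.35 log2 CPM in SI_Con, against 7.41 to 7.80 in GH_Con, and oligodendrocyte markers from 7.14 to 7.44 in SI_Con, against 7.56 to 8.003 in GH_Con, both without overlap. Markers of plaque-associated microglia averaged 2.76 ± 0.45 in SI_Con and 3.63 ± 0.77 in GH_Con (SD, n = 4), and overlapped. The part of these cell types in the result was not tested. At an unadjusted p under 0.05, 7 were lower and 0 higher (all genes, 2.97% higher and 3.57% lower), and 0 passed the adjusted p (all genes, 0%). Plscr1 was at 0.683, 0.918, 0.522 and 1.26 CPM in SI_Con, against 2.35, 2.11, 1.14 and 2.20 CPM in GH_Con, with a log2 fold change of -1.20 (SE 0.39) and an adjusted p of 0.548. Sp100 was at 4.16, 3.28, 1.80 and 2.03 CPM in SI_Con, against 6.03, 7.13, 4.05 and 3.73 CPM in GH_Con, with a log2 fold change of -0.88 (SE 0.30). Both had 3 of 4 SI_Con libraries below GH_Con. Trim25 was at 4.18, 6.63, 4.41 and 6.91 CPM in SI_Con, against 10.2, 7.77, 8.26 and 8.16 CPM in GH_Con, and the groups did not overlap. Its log2 fold change was -0.63 (SE 0.24). The count of 7 became 12 without SI_Con 1, 13 without SI_Con 2, 3 without SI_Con 3 and 11 without SI_EE 1, which enters through the shared spread. Members higher in SI_Con were 13 in place of 6 without GH_Con 2, 3 without GH_Con 3 and 2 without SI_Con 2. Without the 4 libraries that read lower for longer genes, 32 members were lower in SI_Con, 2 of the 44 had an unadjusted p under 0.05, and the median was -0.22. GH_Con held 3 female libraries and SI_Con 2 female libraries, and with sex as a covariate the median was -0.27.

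Under enrichment the sign was the other way. There 41 of 44 members were higher in SI_EE than in GH_EE (all genes, 52.9% higher and 47.1% lower), with a median of 0.29 against 0.02. Of these, 5 were higher at an unadjusted p under 0.05 (all genes, 6.36% higher and 2.34% lower) and 0 passed the adjusted p (all genes, 0.00491%). Plscr1 had a log2 fold change of 1.52 (SE 0.40, adjusted p = 0.392), with no overlap between its SI_EE and GH_EE values above, and 0.99 without SI_EE 1. Stat2 was at 48.2, 16.3, 17.1 and 19.3 CPM in SI_EE, against 15.7, 13.4, 17.2 and 18.1 CPM in GH_EE, a log2 fold change of 0.65 (SE 0.25) that became 0.12 without SI_EE 1. Gbp2 was at 5.97, 5.59, 6.55 and 8.67 CPM in SI_EE, against 4.36, 4.89, 4.94 and 4.77 CPM in GH_EE, without overlap. The count of 5 became 2 without GH_EE 1 or GH_EE 2, 3 without GH_EE 4, SI_EE 1 or SI_EE 4, and 9 without SI_EE 2, and without SI_EE 4 the members lower in SI_EE were 16 in place of 3, with a median of 0.064. Without GH_EE 3 the median was 0.53, and with sex as a covariate it was 0.45, with 15 members at an unadjusted p under 0.05.

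Within the WT arm, 36 of 44 members were lower in SI_WT than in GH_WT (all genes, 49.5% higher and 50.5% lower), with a median of -0.16, and 1, Parp14, at an unadjusted p under 0.05 (all genes, 1.76% higher and 3.61% lower; 0 past the adjusted p, all genes 0%). Parp14 was at 4.002, 6.04, 3.32 and 5.79 CPM in SI_WT, against 5.87, 7.19, 7.22 and 8.61 CPM in GH_WT, with a log2 fold change of -0.60 (SE 0.27) and an adjusted p of 0.906. Without SI_WT 1 or SI_WT 3, the members higher in SI_WT were 17 in place of 8, and without SI_WT 4 they were 2. Averaged over the 3 arms, 32 members were lower in isolated mice (all genes, 50.8% higher and 49.2% lower), with a median of -0.05. There 1 was lower at an unadjusted p under 0.05 and 0 higher (all genes, 4.86% higher and 3.75% lower), and the members higher in isolated mice ran from 7 without SI_WT 4 to 22 without SI_Con 3. With sex as a covariate the median averaged over the arms was 0.0024.

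The WT arm was compared with no treatment, using the same SI_Con and GH_Con libraries as the enrichment and isolation comparisons. A low SI_Con library thus raises the fold changes of both the WT arm and enrichment in isolated mice. In isolated mice 36 of 44 members were higher in SI_WT than in SI_Con (all genes, 48.9% higher and 51% lower), with a median of 0.27 against 0.00, 4 at an unadjusted p under 0.05 (all genes, 1.4% higher and 2.44% lower) and 0 past the adjusted p (all genes, 0%). The smallest p was that of Sp100, at 3.72, 4.69, 3.96 and 7.67 CPM in SI_WT, against 4.16, 3.28, 1.80 and 2.03 CPM in SI_Con, with a log2 fold change of 0.81 (SE 0.30). Oas1a was at 1.56, 1.90, 0.639 and 3.43 CPM in SI_WT, against 0.712, 1.68, 0.340 and 0.114 CPM in SI_Con, with a log2 fold change of 1.38 (SE 0.54). Both pairs overlapped, and the count of 4 became 1 without SI_WT 4 or SI_Con 3, 2 without SI_Con 4, 7 without SI_Con 2 and 8 without SI_Con 1. Without the 4 libraries that read lower for longer genes, 25 members were higher in SI_WT, 1 of the 44 had an unadjusted p under 0.05, and the median was 0.12. In GH mice 30 were higher in GH_WT than in GH_Con (all genes, 48.6% higher and 51.4% lower), with a median of 0.06 and 0 at an unadjusted p under 0.05 (all genes, 1.78% higher and 1.64% lower), and without GH_Con 4 the members lower in GH_WT were 24 in place of 14, with a median of -0.035. For the interaction of WT arm and housing, 30 were positive (all genes, 49.6% positive and 50.4% negative), with a median of 0.16, and 2 positive and 0 negative at an unadjusted p under 0.05 (all genes, 1.86% positive and 2.66% negative), a count that ran from 0 to 5 when single libraries were left out. The median ran from 0.0084 without GH_Con 2 to 0.34 without GH_Con 4, and the positive members from 23 to 36. Without the 4 libraries that read lower for longer genes, 16 members were positive, with a median of -0.11.

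**Figure D4:**
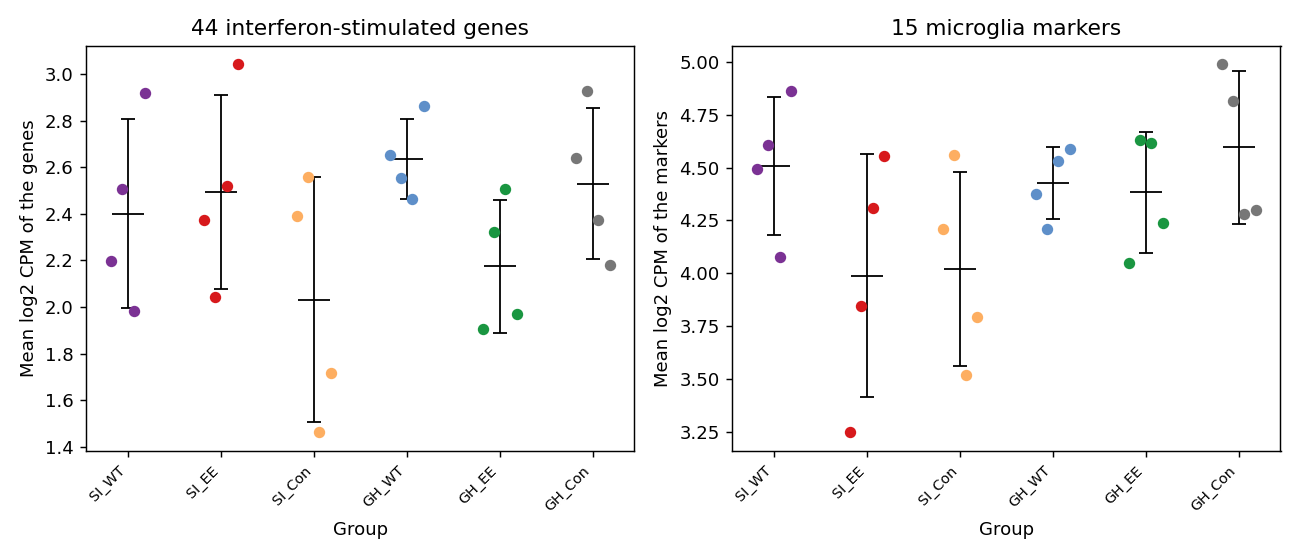
Mean log2 CPM of the 44 interferon-stimulated genes (left) and of 15 microglia markers (right) in each library (points) by group, with the group mean (dash) and SD (bar, n = 4). SI_EE is near GH_Con in the left panel, and the ranges of all groups overlap there. In the right panel SI_EE has the lowest mean, just below SI_Con. The lowest SI_EE point there, at 3.25, is SI_EE 1, with the cerebellar transcripts, and the others are at 3.84 to 4.55.

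Microglia markers moved with part of these results. The mean of 15 markers was 4.51 ± 0.33 log2 CPM in SI_WT, 3.99 ± 0.57 in SI_EE, 4.02 ± 0.46 in SI_Con, 4.43 ± 0.17 in GH_WT, 4.38 ± 0.29 in GH_EE and 4.60 ± 0.36 in GH_Con (SD, n = 4). The SI_EE mean includes SI_EE 1, with the cerebellar transcripts, at 3.25, and the other SI_EE libraries ran from 3.84 to 4.55. In bulk tissue, fewer cells of a type and less RNA per cell cannot be told apart. In a fit chosen after the data had been seen, with the marker mean beside the group, 14 of 44 members (31.8%) were higher where the markers were higher, past an adjusted p of 0.05, and 0 lower. Over all genes 0.639% were higher and 0.172% lower, and 12 of the 15 markers themselves were among the higher genes. The median was 0.75 log2 units per log2 unit of the marker mean, against 0.01 over all genes. This fit held no term for sex. In SI_Con the marker mean was 4.21 and 4.56 in the female libraries and 3.52 and 3.79 in the male ones. Female libraries were also above male ones in GH_EE, SI_EE and GH_WT, and the sexes overlapped in GH_Con and SI_WT. The parts of sex and of marker level were thus not separated.

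The 14 were Irf7, Ifit1, Oas1a, Oasl2, Iigp1, Igtp, Irgm1, Gbp3, Gbp7, Parp14, Psmb8, Xaf1, Ifi44 and Trim30a. Irf7 had a coefficient of 1.58 (SE 0.28, adjusted p = 0.00481). Gbp3 had 1.43 (SE 0.25, adjusted p = 0.00451), and Trim30a 1.05 (SE 0.18, adjusted p = 0.00452). At the other end Plscr1 had -0.31 (SE 0.32, adjusted p = 0.784) and Stat2 -0.26 (SE 0.20, adjusted p = 0.673), neither past the threshold. The count of 14 was 9 without SI_Con 2, 5 without SI_EE 4 and 6 without the 4 libraries that read lower for longer genes.

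**Figure D5:**
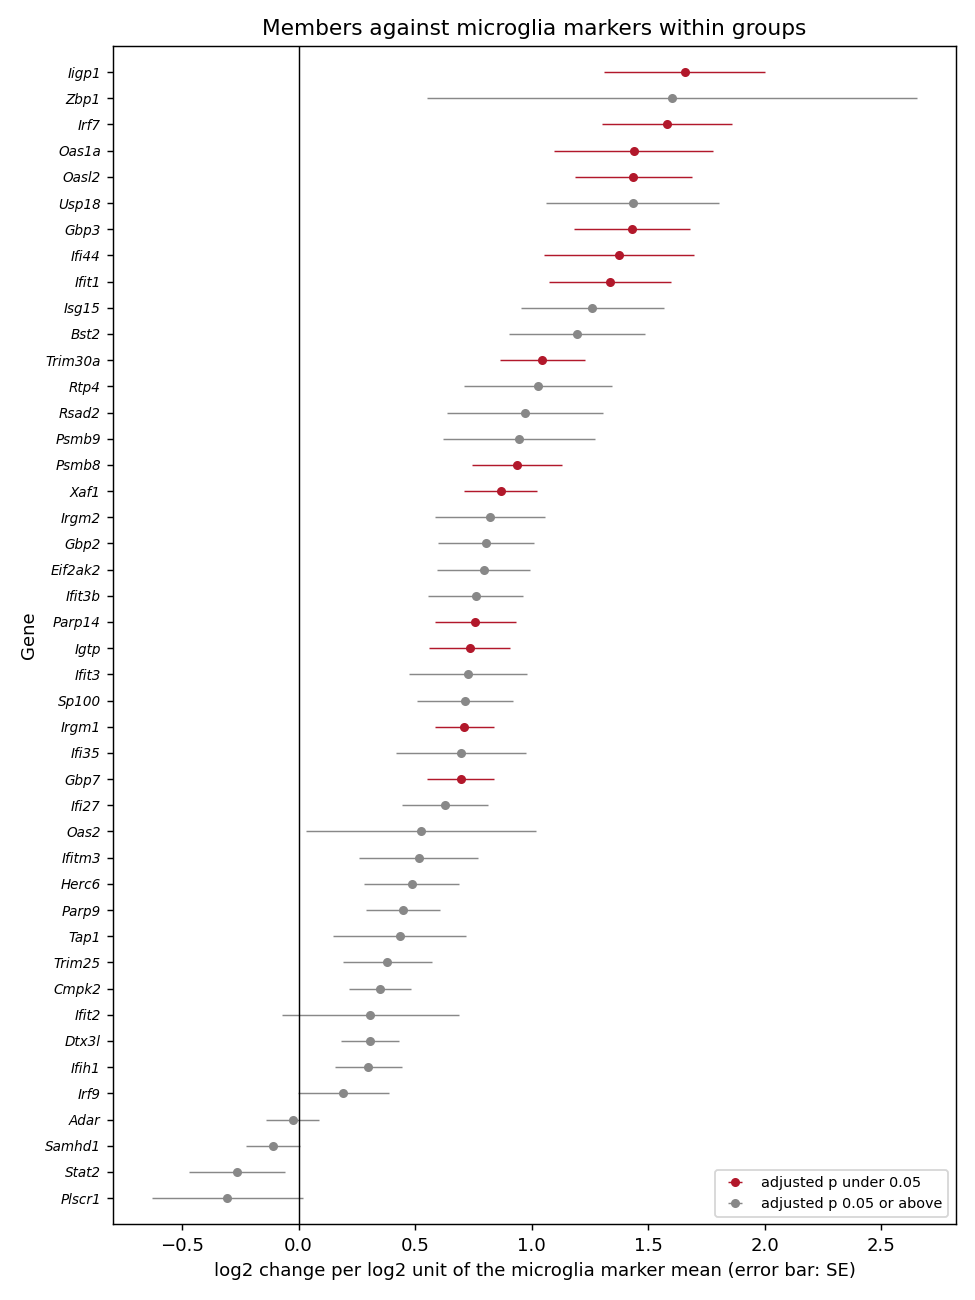
Coefficient of each of the 44 genes on the mean log2 CPM of 15 microglia markers, within groups, over 24 libraries, with SE as error bars. The 14 red genes passed an adjusted p of 0.05, and 40 of the 44 coefficients are above 0, with Plscr1 and Stat2 below it.

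With the marker mean as a covariate, some medians moved toward 0 or past it and others away from it. For isolation in untreated mice the median became 0.04, and 20 members in place of 38 were lower. For the WT arm in isolated mice it became -0.09, and 19 in place of 36 were higher. For enrichment it was 0.45 in isolated mice, with 39 of 44 higher, -0.15 in GH mice, with 35 in place of 41 lower, and 0.64 for the interaction, with 41 positive. For isolation under enrichment it was 0.61 in place of 0.29, with 42 of 44 higher and 25 in place of 5 at an unadjusted p under 0.05. The SI_EE libraries in these fits include SI_EE 1, with the cerebellar transcripts. Its marker mean was 3.25 log2 CPM, against 3.84, 4.31 and 4.55 in the other SI_EE libraries. Values of the covariate fit without SI_EE 1 are not given here. For the interaction of WT arm and housing it was -0.30, with 11 in place of 30 positive. The markers are themselves RNA levels of these libraries, and their part in the results was not tested beyond this fit.

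Other genes of the pathway were counted by list. None of 10 interferon genes listed reached 0.3 CPM, and Ifng, Ifna1, Ifna4, Ifna5, Ifnl2 and Ifnl3 had no read in any library, while Ifnb1 had 4 reads in 1 library. Of 105 further receptor, signalling, sensing, inhibitor and response genes tested, 0 passed the adjusted p in any of the 10 comparisons. In SI_EE against SI_Con 72 were higher and 33 lower (all genes, 50.7% higher and 49.3% lower), and in GH_EE against GH_Con 33 were higher and 72 lower (all genes, 46.4% higher and 53.6% lower). Most of these counts came from 66 further response genes, with 46 higher and 20 lower in SI_EE, and 14 higher and 52 lower in GH_EE. Of 10 signalling genes 8 were higher and 2 lower in SI_EE, and 6 higher and 4 lower in GH_EE. Of 6 receptor genes 3 were higher and 3 lower in each housing. For the interaction, 11 of the 105 were positive and 4 negative at an unadjusted p under 0.05 (all genes, 5.16% positive and 2.58% negative), and all 11 were response genes. Ifngr1, a chain of the interferon gamma receptor, averaged 12.8 ± 1.34 CPM in SI_EE and 6.59 ± 0.448 CPM in SI_Con (SD, n = 4), with a log2 fold change of 0.94 and an adjusted p of 0.217. The type I receptor chain Ifnar1 averaged 42.9 ± 2.23 CPM in SI_EE and 39.1 ± 4.05 CPM in SI_Con, with an adjusted p of 0.717. Ifnar2, the other chain, averaged 14.7 ± 1.60 CPM in SI_EE and 14.8 ± 1.11 CPM in SI_Con, with an adjusted p of 0.964.

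Mx1, an antiviral GTPase, averaged 0.503 ± 0.328 CPM in SI_EE and 0.354 ± 0.267 CPM in SI_Con, and the chemokine Cxcl10 0.928 ± 0.822 CPM in SI_EE and 0.795 ± 0.921 CPM in SI_Con. B2m, the light chain of MHC class I, averaged 103 ± 19.3 CPM in SI_EE and 109.8 ± 17.4 CPM in SI_Con. All 3 differed by less than the spread between libraries. Trim34a, a relative of Trim30a whose reads may be shared with close paralogs, named after its values were seen, averaged 3.49 ± 1.11 CPM in SI_EE and 0.930 ± 0.149 CPM in SI_Con, with a log2 fold change of 1.89 and an adjusted p of 0.159. With DESeq2 its adjusted p was 0.00113, and without SI_EE 2 it was 0.0465, both past the threshold. Of 12 lymphocyte markers 2 reached 0.3 CPM, Cd4 (mean 10.7 CPM, read in all 24 libraries) and Trac (0.494 CPM). Of 10 monocyte and neutrophil markers 1 did, Ly6c2 (0.485 CPM). Among the markers below 0.3 CPM, Cd3e had 14 reads in all 24 libraries together, Ms4a1 2 and Ly6g 3.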

How the data were processed

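RNA from medial prefrontal cortex was sequenced on the Illumina platform, per the labels' protocols. The authors deposited unnormalised counts of reads for 24 libraries, judging by their whole-number values and unequal totals. The genome build is mm10, per the submitters' processing notes, and no aligner, counter or strand setting is named there. Of 56750 entries, 52073 (91.8%) were paired with a symbol through reference tables, and all 24 columns belong to a named sample. Totals of 33683587 to 51274917 counts limit precision by counting error only.

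The quasi-likelihood test of edgeR 4.0.16 (R 4.3.3) was run on the counts, with TMM factors, the filterByExpr filter by group and robust dispersions, with 24 libraries in 1 fit, 10 comparisons, 20354 genes and Benjamini-Hochberg adjustment over all of them at 0.05. The procedure was tested on simulated data. For CPM, totals were scaled by TMM, and log2 CPM add a prior count of 2. Genes were named by rule: 17 always, any member past the threshold, and the 4 with the smallest p in each comparison. Members, lists and tests were chosen with earlier results of these data known. The list median and counts are descriptions with no test. Alternatives were DESeq2 1.42.0, limma 3.58.1 (voom), RLE factors, no filter on low counts, a block by replicate number, sex as a covariate, fits of the compared groups alone, libraries left out, a CPM minimum of 1, and, added later, a microglia marker covariate. The length check used genes with a mean of at least 1 CPM. Gene positions and exons are from GENCODE M21 and promoter sequences from RefSeq GRCm38.p6. A few genes are not reported here.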

Additional observations from a re-analysis of the deposited data

Results flagged for a closer look

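Within groups of 4 libraries, 186 groups of values were examined for a library whose gap to its nearest neighbour made up more of the group's range than Dixon's critical value allows, and 6 were found. Chance alone gives about 1 in 20 such groups, and 6 of 186 is a smaller share than that. In SI_EE, library SI_EE 1 had 48.2 CPM of Stat2 against 16.3 to 19.3 CPM in the other 3, and 6.39 CPM of Herc6 against 22.1 to 23.7 CPM; this library holds cerebellar transcripts, whose part in both values was not tested. Adar was at 166 CPM in GH_Con 4, with the other 3 between 192.8 and 194.4 CPM, and at 180.7 CPM in SI_WT 4, with the other 3 between 209 and 214 CPM. Plscr1 was at 1.14 CPM in GH_Con 3, with the other 3 at 2.11 to 2.35 CPM. Irgm1 was at 13.9 CPM in GH_WT 2, with the other 3 at 16.3 to 16.7 CPM. No member's interaction with housing passed the adjusted p.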

How the results depend on the processing

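Of 63 pairs of gene and comparison, those with a printed fold change or adjusted p and the 4 members of smallest p in each comparison, 59 kept their direction under all alternatives run. The other 4, all for enrichment in isolated mice and none past the threshold, changed sign. Irf7 (-0.01) was at 0.016 with limma-voom, 0.0056 with no filter, 0.31 with sex and 0.11 with the marker mean as covariates, 0.15 without SI_EE 1, 0.014 without the 4 libraries that read lower for longer genes, and -0.47 to 0.26 with single libraries left out. Adar was at 0.028 without SI_EE 1 (-0.073 to 0.028 over single libraries), Ifnar2 at 0.060 without the 4 libraries (-0.092 to 0.020), and Isg15 at -0.17 to 0.71 over single libraries. Of 1321 such values under an alternative, 1300 kept their side of the threshold and direction and 5 came past it (Plscr1 in 2 comparisons and Trim34a with DESeq2, Parp9 and Trim34a without SI_EE 2). With only the compared groups in the fit, 6 members for enrichment in isolated mice and 7 for the interaction, in place of 11 each, had an unadjusted p under 0.05. DESeq2 called 1 member for enrichment in isolated mice and 1 for its interaction with housing, against 0 with edgeR, and 174 and 29 genes in all, against 0 and 0; the cause was not tested. Leaving out each library in turn gave 0 to 1 members past the adjusted p for enrichment in isolated mice and 0 in the other comparisons of groups. For the microglia markers it gave 5 to 19 members in place of 14, and 6 without the 4 libraries that read lower for longer genes, a fit with fewer samples. With the marker mean as a covariate the median was 0.039 in place of -0.36 for isolation in untreated mice and -0.30 in place of 0.16 for the interaction of WT arm and housing; the cause was not tested. Replicate numbers did not pair the samples: of 60 same-number pairs, 4 had a correlation of deviations over 0.1 (range -0.28 to 0.18), and 1 library correlated best with its own number. With the replicate block no member passed the adjusted p, and the medians were 0.39 for enrichment in isolated mice, -0.31 in GH mice and 0.80 for the interaction. Zbp1 had the lowest mean of the list, 0.404 CPM, and no read in 3 libraries.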
